A study of Mus musculus with 8 samples.

Results

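The ribosome biogenesis factors described here are 40 genes of the nucleolus, listed by name with earlier results of these data known. They comprise 4 subunits of RNA polymerase I (Polr1a, Polr1b, Polr1c, and Polr1d), 4 proteins of box C/D small nucleolar RNPs (Fbl, Nop56, Nop58, and Rrp9), 4 of the box H/ACA particles (Dkc1, Gar1, Nhp2, and Nolc1), 5 abundant or regulatory nucleolar proteins (Ncl, Npm1, Ddx21, Gnl3, and Lyar), 11 assembly factors of the small subunit, and 12 of the large subunit. Of 29924 gene names on the array, 15764 entered the tests, namely those with a brightest probe that exceeded background clearly in 1 or more cell types at both days. Of the 40 members, 39 were among them. Lyar was not tested, since its probe was well above background on 3 of the 8 arrays and in no cell type on both. Of the 39 members, 38 were well above background on all 8 arrays, the exception being Rrp12 with 6.

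CD4 T cells were sorted from peripheral lymph nodes (pLN) of mice of the strain B6.Cg-Foxp3<tm1Mal>, whose Foxp3 expressing cells carry EGFP, after subcutaneous immunization with KLH in alum. Naive CD4 T cells were GFP-PD1loGL7-, TFH cells GFP-PD1hiGL7+, Treg cells GFP+PD1loGL7-, and TFR cells GFP+PD1hi with or without GL7, so that the follicular gates differ in GL7 as well as in Foxp3. Per the labels, each fraction was pooled from 8 to 15 mice of both sexes aged 8 to 14 weeks, and 25 ng of RNA were hybridized to 1 one-colour array. Each of the 4 cell types has 1 array at d12 and 1 at d25 post immunization (p.i.), and every animal was immunized. The p values rest on a spread estimated over all 4 cell types together. It measures how far the change between the days in a cell type departs from the change common to all of them. The cells' defining genes followed the labels: Foxp3 had 37266 to 49262 relative units (RU) on the arrays of Treg and TFR cells and 66 to 358 RU on the others, and Pdcd1, which codes for PD1, had 87316 to 303513 RU on the follicular arrays and 2099 to 4621 RU on the others. On each array, 18261 to 19867 of 39429 probes were well above background, and 0 probes were saturated. All d12 arrays shared a slide, the d25 arrays of naive CD4 T and TFH cells shared another, and those of Treg and TFR cells one more, so day and slide cannot be told apart.

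Ribosome production starts in the nucleolus, where RNA polymerase I transcribes the ribosomal DNA into a long precursor RNA. Box C/D particles guide the 2'-O-methylation of this precursor and box H/ACA particles its pseudouridylation, while the small subunit processome and the large subunit assembly factors fold, cut, and load it with ribosomal proteins. The pathway is demanding for a cell, is driven by growth signals and by the transcription factor MYC, and is known to be switched on when a naive T cell is activated and enters rapid division. Levels below are normalized intensities in RU and compare samples for one probe, not one gene with another. Differences are on the log2 scale, estimated with limma over both days, and given ± standard error (n = 2 arrays for each cell type). A gene is said to have risen or fallen where the p value, adjusted by Benjamini-Hochberg over all 15764 genes, was below 0.05.

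TFH cells had lower levels of most ribosome biogenesis factors than naive CD4 T cells. Of 39 members, 34 (87.2%) fell and 0 rose, whereas 25.6% of all genes tested fell and 20.9% rose. The count of risen members was also 0 at an unadjusted p below 0.05, which 24.5% of all genes reached in that direction. The median member difference was -0.66, beside -0.07 for all genes, and the members ranged from -2.12 for Rrp12 to 0.42 for Pes1. At each day, the same sign was seen on separate slides: 35 members were lower in TFH cells at both d12 and d25, compared to 45.7% of all genes. Since the arrays were normalized to 1 common distribution, these are levels relative to the other transcripts of the same RNA, and fewer cells with the transcript cannot be told apart from less transcript per cell. The count was 22 without the naive CD4 array of d12 and 18 without that of d25.

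In TFR cells the factors also lay below the level of Treg cells, with fewer members passing the test. Here 17 members (43.6%) fell and 1 rose (2.56%, Polr1d), compared to 20.9% and 18.7% of all genes. The median was -0.31 for the members and -0.08 for all genes. At both days, 31 members were lower in TFR cells, compared to 48.2% of all genes. The 17 members that fell in TFR cells were all among the 34 that fell in TFH cells, which is 50% of the longer list and 100% of the shorter one. With 34 of 39 members on the longer list such an overlap says little about them, and over all genes tested the shared part was 56% and 68.5%. They were Polr1b, Nop56, Rrp9, Npm1, Gnl3, Heatr1, Utp15, Wdr43, Wdr75, Nop14, Bysl, Rrp12, Tsr1, Nob1, Noc3l, Ftsj3, and Ppan. Leaving out 1 of the 4 arrays compared lowered the count to 7 (Treg, d12), 5 (Treg, d25), or 6 (TFR, either day), with 0 risen.

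**Figure D1:**
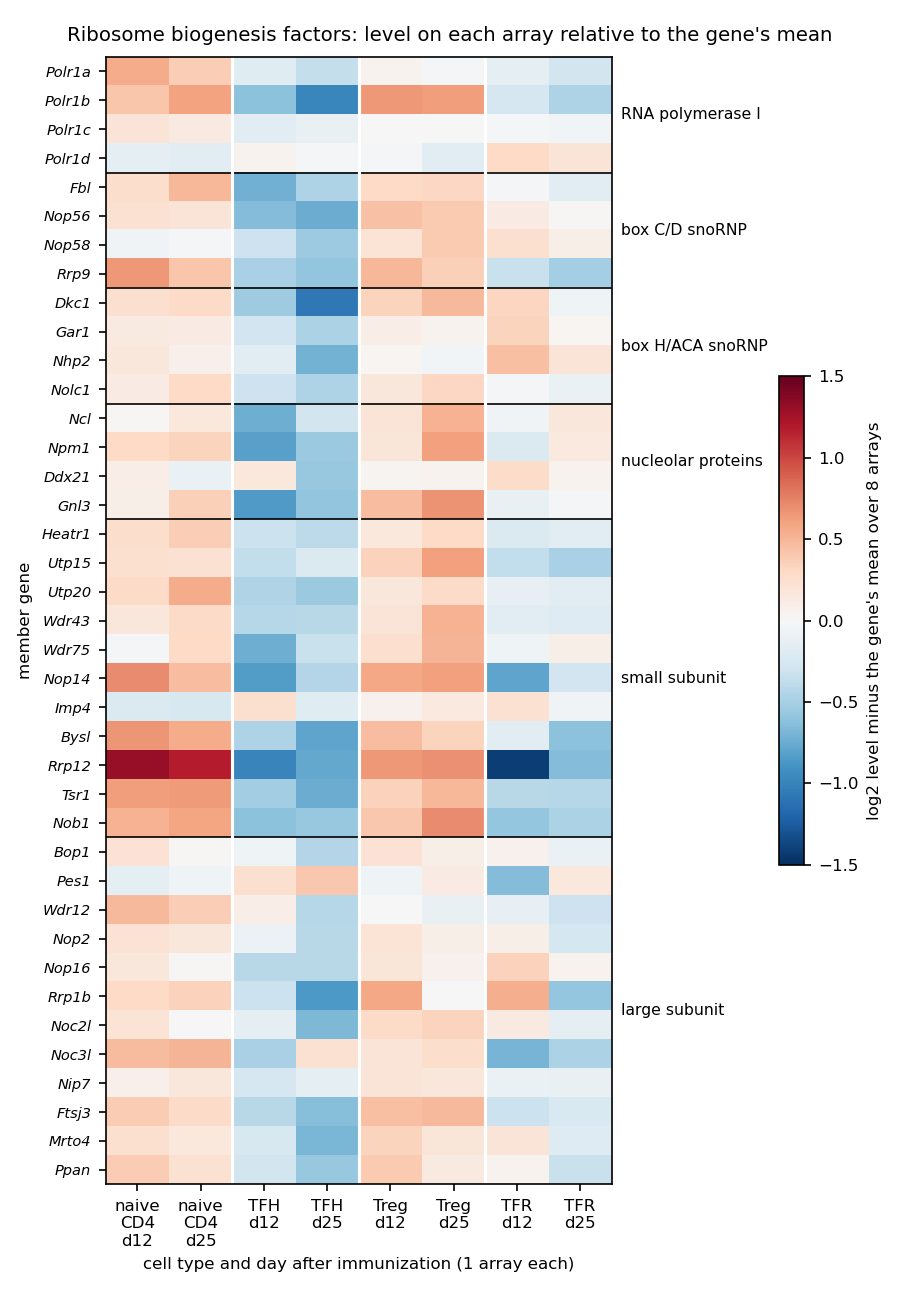
Level of the 39 members tested (rows, grouped by role) on each of the 8 arrays (columns), as the log2 level minus the gene's mean over the arrays; blue is below and red above that mean. The TFH columns are blue for most rows, with array medians of -0.37 at d12 and -0.48 at d25, while the naive CD4 and Treg columns have medians from 0.21 to 0.31 and the TFR columns -0.06 and -0.16.

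At both days TFH cells stood lowest and TFR cells next, as the plot of levels relative to the mean shows. The mean level of a member was lowest in TFH cells for 32 of 39 members, in TFR cells for 5, in naive CD4 T cells for 2, and in Treg cells for 0. It was highest in Treg cells for 19, in naive CD4 T cells for 14, in TFR cells for 5, and in TFH cells for 1 member. Over the 39 members, the root mean square log2 difference between naive CD4 T and Treg cells was 0.221 at d12 and 0.24 at d25. This was close to the difference between the days within naive CD4 T cells (0.147) and Treg cells (0.19). TFH cells differed from naive CD4 T cells by 0.819 and 0.88, and TFR from Treg cells by 0.596 and 0.606. The follicular cell types differed from each other by 0.458 and 0.438 at matched days, not far above the differences between the days within TFH (0.342) and within TFR cells (0.341). These distances are descriptions over 39 genes of the same arrays and were not tested.

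RNA polymerase I makes the ribosomal RNA precursor, and its 4 subunits on the list did not move together. Polr1b (chr2:128951870-128951929), the second-largest subunit and part of the catalytic core, had 2755 and 3144 RU in naive CD4 T cells at d12 and d25 and 1350 and 1049 RU in TFH cells. Treg cells had 3244 and 3197 RU and TFR cells 1732 and 1504 RU. Every follicular array thus lay below every array of the PD1lo cells, and Polr1b fell by 1.31 ± 0.15 in TFH cells (adjusted p = 0.0029) and by 1.00 ± 0.15 in TFR cells (adjusted p = 0.00867). Polr1a (chr6:71929251-71929310), the largest subunit, had 7409 and 6515 RU in naive CD4 T cells, 4427 and 3916 in TFH, 5224 and 4987 in Treg, and 4532 and 4138 in TFR cells. It fell in TFH cells (-0.74 ± 0.08, adjusted p = 0.00255) but was at -0.24 ± 0.08 in TFR cells (adjusted p = 0.0768). Its second, dimmer probe was at -0.79 in TFR cells, and with the mean of both probes Polr1a fell there (-0.52, adjusted p = 0.038). It also fell there with every gene name tested (adjusted p = 0.0448) and with an intensity trend and robust prior (adjusted p = 0.0496). Polr1a was the only member that differed between Treg and naive CD4 T cells (-0.44 ± 0.08, adjusted p = 0.0381). Polr1d (chr5:147922840-147922899), a subunit shared with RNA polymerase III, went the other way. Its levels were 31081 and 30612 RU in naive CD4 T cells, 35694 and 33791 in TFH, 33930 and 30791 in Treg, and 42420 and 39437 in TFR cells. It rose in TFR cells (0.34 ± 0.08, adjusted p = 0.0296) and was at 0.17 ± 0.08 in TFH cells (adjusted p = 0.147). That rise passed the test in 9 of the 20 alternatives to the processing, and not with scaling in place of quantile normalization (adjusted p = 0.052) or with the mean of its probes (adjusted p = 0.0895). The second, dimmer Polr1d probe was at 0.65 in TFH and 0.29 in TFR cells. With the mean of both probes, Polr1d rose in TFH cells (0.41, adjusted p = 0.0402). Polr1c, also shared with RNA polymerase III, fell in TFH cells by 0.30 ± 0.08 (adjusted p = 0.0345) and was at -0.03 in TFR cells.

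Proteins of the box C/D particles fell in TFH cells for 3 of 4 members and in TFR cells for 2 of 4. The shares of all genes were 25.6% and 20.9%. Fbl (chr7:28964229-28964288), the methyltransferase of the particle, had 23347 and 27398 RU in naive CD4 T cells, 11838 and 14111 in TFH, 23841 and 24089 in Treg, and 19091 and 17343 in TFR cells. Both TFH arrays lay below all others and TFR cells in between. Fbl fell by 0.97 ± 0.13 in TFH cells (adjusted p = 0.00426), while in TFR cells it was at -0.40 ± 0.13 (adjusted p = 0.0641). Nop56 (chr2:130104982-130105041), a scaffold of the particle, had 18974 and 18547 RU in naive CD4 T cells, 10374 and 9699 in TFH, 22090 and 21275 in Treg, and 17663 and 16405 in TFR cells. It fell by 0.90 ± 0.08 in TFH cells (adjusted p = 0.00127) and by 0.35 ± 0.08 in TFR cells (adjusted p = 0.0254). Its partner Nop58 (chr1:59768230-59768289) had 7712 and 7875 RU in naive CD4 T cells, 6430 and 5456 in TFH, 9177 and 10459 in Treg, and 9402 and 8458 in TFR cells. Nop58 did not pass the test against either progenitor, at -0.40 ± 0.13 in TFH cells (adjusted p = 0.0605) and -0.14 ± 0.13 in TFR cells. Rrp9 (chr9:106386845-106387461), which binds the U3 particle needed to cut the precursor, was nearly as low in TFR as in TFH cells, with 6481 and 5473 RU in naive CD4 T cells, 2948 and 2726 in TFH, 5806 and 5265 in Treg, and 3270 and 2897 in TFR cells. The falls were 1.07 ± 0.08 (adjusted p = 0.000884) and 0.84 ± 0.08 (adjusted p = 0.00285).

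All 4 box H/ACA members fell in TFH cells and 0 of 4 fell in TFR cells, beside 25.6% and 20.9% of all genes. In TFR cells the count was 0 at an unadjusted p below 0.05 as well. The count in TFH cells was 0 without the naive CD4 array of d25, 1 without the TFH array of d25, and 1 when every gene name was tested. Dkc1 (chrX:72354473-72354532), the pseudouridine synthase dyskerin, had 912 and 942 RU in naive CD4 T cells, 532 and 364 in TFH, 968 and 1081 in Treg, and 960 and 735 in TFR cells. It fell by 1.07 ± 0.20 in TFH cells (adjusted p = 0.0121), and in TFR cells its difference was -0.28 ± 0.20, made of -0.01 at d12 and -0.56 at d25. For Nhp2 (chr11:51436872-51436931), a core protein of the particle and of telomerase, the levels were 41882 and 39350 RU in naive CD4 T cells, 33076 and 22738 in TFH, 38087 and 36248 in Treg, and 51132 and 42452 in TFR cells. Both TFR arrays were the brightest of all and both TFH arrays the dimmest, with -0.57 ± 0.14 for TFH cells (adjusted p = 0.0287) and 0.33 ± 0.14 for TFR cells (adjusted p = 0.131). Gar1 (chr3:129527855-129527914), another core protein, had 16857 and 16789 RU in naive CD4 T cells, 12554 and 11013 in TFH, 16512 and 15866 in Treg, and 19299 and 15655 in TFR cells. It fell by 0.52 ± 0.11 in TFH cells (adjusted p = 0.0159) and was at 0.10 ± 0.11 in TFR cells. Nolc1, a chaperone of the particles, fell by 0.60 ± 0.12 in TFH cells and was at -0.30 ± 0.12 in TFR cells (adjusted p = 0.103). Its second, dimmer probe was at -1.03 in TFH and -1.26 in TFR cells, and with the mean of both probes Nolc1 fell in TFR cells (-0.78, adjusted p = 0.00531).

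Of the nucleolar proteins, 3 of the 4 tested fell in TFH cells and 2 of 4 in TFR cells, beside 25.6% and 20.9% of all genes. Npm1 (chr11:33056689-33056991), the nucleolar chaperone nucleophosmin, had 130223 and 133949 RU in naive CD4 T cells, 60340 and 71966 in TFH, 120648 and 162414 in Treg, and 91300 and 117218 in TFR cells. It fell by 1.00 ± 0.12 in TFH cells (adjusted p = 0.00321) and by 0.44 ± 0.12 in TFR cells (adjusted p = 0.0435). Nucleolin, encoded by Ncl (chr1:88247953-88248012), had 37866 and 41636 RU in naive CD4 T cells, 22377 and 30724 in TFH, 42658 and 53533 in Treg, and 36059 and 41946 in TFR cells. Ncl fell by 0.60 ± 0.11 in TFH cells (adjusted p = 0.0109) and was at -0.30 ± 0.11 in TFR cells (adjusted p = 0.0869). Gnl3 (chr14:31826877-31826936), the GTPase nucleostemin of proliferating cells, had 889 and 1075 RU in naive CD4 T cells, 464 and 557 in TFH, 1150 and 1333 in Treg, and 775 and 824 in TFR cells. It fell by 0.94 ± 0.09 and 0.63 ± 0.09 (adjusted p = 0.00161 and 0.00714). Ddx21 (chr10:62044862-62044921), an RNA helicase, passed neither test, and its TFH arrays disagreed, with 6788 RU at d12 and 4116 RU at d25 beside 6515 and 5684 RU in naive CD4 T cells, 6257 and 6334 in Treg, and 7395 and 6322 in TFR cells. Lyar, the member that was not tested, had 35 and 32 RU in naive CD4 T cells at d12 and d25, 271 and 20 in TFH, 74 and 39 in Treg, and 102 and 33 in TFR cells, where 20 RU is the floor.

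Small subunit factors fell in TFH cells for 10 of 11 members (median -0.92, beside -0.94 for box C/D) and in TFR cells for 9 of 11 (median -0.78). The shares of all genes were 25.6% and 20.9%. In TFR cells 4 were called without either TFR array or the d25 Treg array and 5 without the d12 Treg array, and 6 when every gene name was tested. Rrp12 (chr19:41945749-41945925), which takes part in export and maturation of the pre-ribosome, had 245 and 223 RU in naive CD4 T cells, 50 and 58 in TFH, 155 and 158 in Treg, and 37 and 63 in TFR cells. It was well above background on 1 of 2 arrays of TFH cells and on 1 of 2 of TFR cells. Its mean was 4.35-fold lower in TFH than in naive CD4 T cells (adjusted p = 0.00228). In TFR cells it was at least 2.73-fold lower than in Treg cells (adjusted p = 0.00614). For this bound 1 dim level was replaced by the lowest signal well above background on its array. Nob1 (chr8:109940113-109940915), the nuclease that makes the final cut of the small subunit RNA, showed the most even pattern. Its levels were 4960 and 5191 RU in naive CD4 T cells, 2260 and 2334 in TFH, 4582 and 5641 in Treg, and 2309 and 2476 in TFR cells. Nob1 fell by 1.14 ± 0.10 in TFH cells (adjusted p = 0.00127) and by 1.09 ± 0.10 in TFR cells (adjusted p = 0.00248), so that the follicular cell types were at nearly the same level. Nop14 (chr5:34986699-34987391), a processome component, had 2038 and 1713 RU in naive CD4 T cells, 695 and 917 in TFH, 1862 and 1911 in Treg, and 718 and 1021 in TFR cells, and fell by 1.23 ± 0.21 and 1.14 ± 0.21 (adjusted p = 0.00875 and 0.0136). The small subunit factors Bysl and Tsr1, of which the latter is a GTPase-like late factor, fell by 1.24 and 1.26 in TFH cells and by 0.78 and 0.84 in TFR cells.

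Among the remaining small subunit factors, Utp15 (chr13:99017780-99017839), of the complex that links transcription to processing, had the lower estimate in TFR cells, a difference between the follicular changes that did not pass its own test (adjusted p = 0.261). Its levels were 555 and 554 RU in naive CD4 T cells, 365 and 404 in TFH, 597 and 721 in Treg, and 366 and 337 in TFR cells, and it fell by 0.53 ± 0.12 and 0.90 ± 0.12 (adjusted p = 0.0221 and 0.00616). Wdr75 (chr1:45879813-45880205), of the same complex, had 2495 and 3105 RU in naive CD4 T cells, 1514 and 1996 in TFH, 2996 and 3598 in Treg, and 2422 and 2686 in TFR cells, and fell by 0.68 ± 0.10 and 0.36 ± 0.10 (adjusted p = 0.0052 and 0.038). Its partners Heatr1 and Wdr43 also fell in both. The processome factor Utp20 fell in TFH cells (-0.92) and was at -0.38 in TFR cells (adjusted p = 0.0648). Imp4 (chr1:34501741-34501800), a U3-associated protein, was the only small subunit factor at a higher mean in TFH cells, at 0.26 ± 0.15 (adjusted p = 0.213). Its levels were 5146 and 5069 RU in naive CD4 T cells, 7086 and 5285 in TFH, 6280 and 6640 in Treg, and 7027 and 5757 in TFR cells.

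Large subunit factors fell in TFH cells for 11 of 12 members (median -0.55), beside 25.6% of all genes. In TFR cells 3 of 12 fell (median -0.28), a share near the 20.9% of all genes. The latter were Noc3l, Ftsj3, and Ppan. Leaving out single arrays changed these counts: 2 members fell in TFH cells without the naive CD4 array of d25 and 4 without that of d12, 5 or 6 without any other array, and 0 or 1 fell in TFR cells without 1 of the Treg or TFR arrays. In TFH cells 6 fell with the slide as a block, 4 with no day term, and 5 when every gene name was tested. Ppan (chr9:20696546-20696605), which joins an early precursor with other factors, had 5035 and 4517 RU in naive CD4 T cells, 3204 and 2595 in TFH, 5053 and 4245 in Treg, and 4004 and 3054 in TFR cells, and fell by 0.73 ± 0.09 and 0.41 ± 0.09 (adjusted p = 0.00395 and 0.0268). Noc3l (chr19:38863163-38863222) varied between the days in TFH cells, with 1047 and 1710 RU beside 2027 and 2084 in naive CD4 T cells, 1668 and 1757 in Treg, and 899 and 1056 in TFR cells. It fell by 0.81 ± 0.19 in TFR cells (adjusted p = 0.0262) and by 0.62 ± 0.19 in TFH cells (adjusted p = 0.0477). Rrp1b (chr17:32193829-32193888) had 1164 and 1203 RU in naive CD4 T cells, 760 and 523 in TFH, 1413 and 947 in Treg, and 1384 and 636 in TFR cells, and was thus lower on every d25 array of the 3 cell types other than naive CD4. Its fall in TFH cells (-0.91 ± 0.28, adjusted p = 0.0486) had the largest adjusted p of the 34, and it passed the test in 10 of the 20 alternatives, beside 8 for Polr1c and Nop2 and 9 for Bop1, Noc3l, and Nip7.

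The PeBoW complex, which joins Pes1, Bop1, and Wdr12 and is needed for maturation of the large subunit RNA, had 2 members that fell in TFH cells. Bop1 fell by 0.37 ± 0.10 in TFH cells (adjusted p = 0.0345). Wdr12 (chr1:60134982-60135040) had 8011 and 7387 RU in naive CD4 T cells, 6170 and 4267 in TFH, 5782 and 5322 in Treg, and 5283 and 4631 in TFR cells, and fell by 0.58 ± 0.13 in TFH cells (adjusted p = 0.0217). Pes1 (chr11:3879948-3880007) had 3053 and 3209 RU in naive CD4 T cells, 3964 and 4454 in TFH, 3215 and 3659 in Treg, and 2148 and 3766 in TFR cells. Both TFH arrays exceeded all others, and its difference of 0.42 ± 0.20 in TFH cells missed the threshold (adjusted p = 0.146). A dimmer Pes1 probe had the opposite sign.

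**Figure D2:**
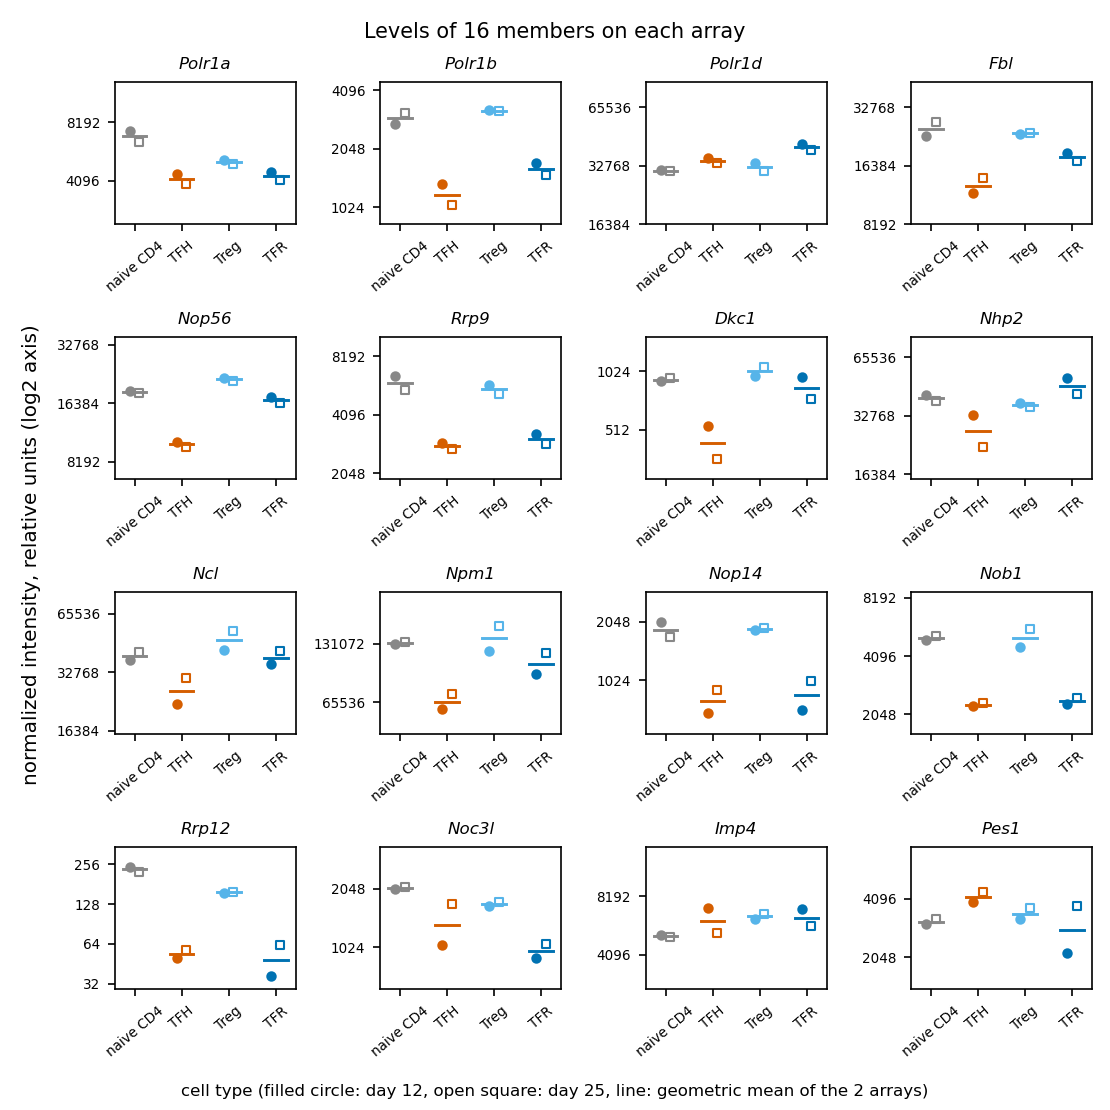
Normalized intensity of 16 members on the 8 arrays (log2 axis in relative units, each panel with its own range), by cell type; filled circles are d12, open squares d25, and lines the geometric mean of the 2 arrays. Polr1b, Rrp9, Nop14, and Nob1 are low in both follicular cell types, whereas Nop56, Dkc1, Nhp2, and Ncl are lowest in TFH cells and Polr1d, Imp4, and Pes1 are not lower in TFH than in naive CD4 T cells.

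The values of Pes1 and Imp4 depended on the probe. A second, dimmer Imp4 probe (chr1:34504331-34504390, 281 to 948 RU) was at -1.31 in TFH and -0.89 in TFR cells, compared to 0.26 and -0.02 for the brightest probe. The second Pes1 probe (chr11:3873303-3873362, 335 to 842 RU) was at -1.16 and -0.60, compared to 0.42 and -0.27. With the mean of all probes in place of the brightest, Imp4 was at -0.52 in TFH cells (adjusted p = 0.0259). Npm1 has 5 probes, which were all lower in TFH than in naive CD4 T cells (from -1.11 to -0.26), and 4 of which were lower in TFR than in Treg cells. The exception (chr11:33055026-33055085) was at 0.32, so that the direction of Npm1 in TFR cells is not shared by its probes. Over the 14 members with several probes well above background on all arrays, 17 of the 18 probes that were not the brightest were lower in TFH than in naive CD4 T cells and 16 of 18 were lower in TFR than in Treg cells. Which transcripts the probes detect was not tested.

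**Figure D3:**
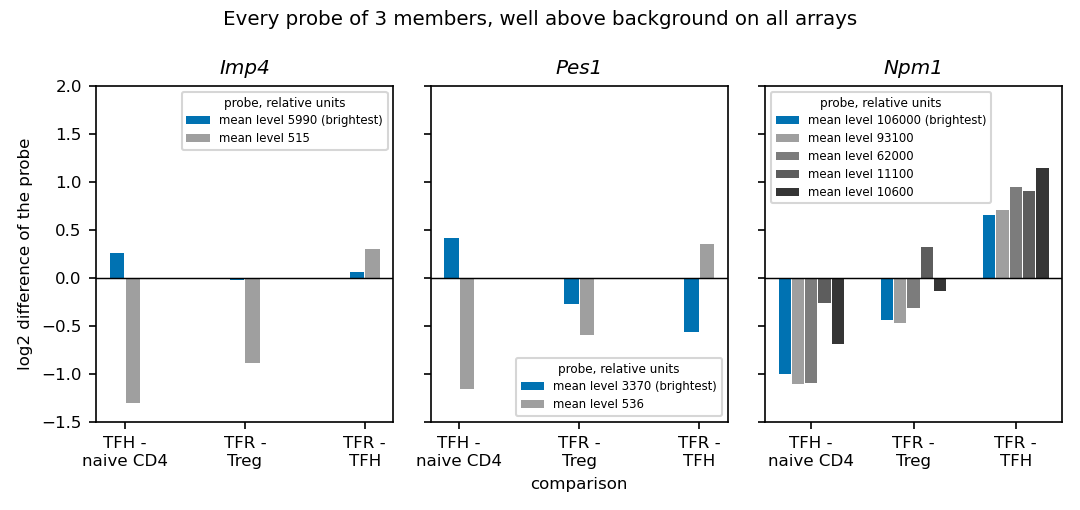
Log2 difference of each probe of Imp4, Pes1, and Npm1 in 3 comparisons (bars, no error shown); the brightest probe, which stands for the gene elsewhere, is blue and the legend gives each probe's mean level in relative units. For Imp4 and Pes1 the dimmer probe is at -1.31 and -1.16 in TFH cells where the brightest is at 0.26 and 0.42.

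Compared directly, TFR cells had higher levels than TFH cells for part of the list. In this comparison, 10 of 39 members (25.6%) were higher in TFR cells and 0 were lower, beside 11.6% and 10.5% of all genes. At an unadjusted p below 0.05, 18 members (46.2%) were higher and 1, Pes1 (2.56%), was lower, beside 18.7% and 18.8% of all genes. The median was 0.26 for the members and -0.02 for all genes, and 33 members were higher in TFR cells at both days, compared to 35.6% of all genes. The 10 were core proteins of the modification particles (Nop56, Nop58, Dkc1, Gar1, and Nhp2), the nucleolar proteins Ncl, Npm1, and Gnl3, and Wdr75 and Nop16 of the small and large subunit pathways. Differences reached 0.93 ± 0.20 for Dkc1 (adjusted p = 0.0349), 0.76 ± 0.08 for Nop56 (adjusted p = 0.005), and 0.76 ± 0.14 for Nhp2 (adjusted p = 0.0237). By role, 2 of 4 box C/D, 3 of 4 box H/ACA, 3 of 4 nucleolar, 1 of 11 small subunit, 1 of 12 large subunit, and 0 of 4 polymerase members were higher. Of the polymerase subunits, 2 had an unadjusted p below 0.05, both higher in TFR cells by the brightest probe. For 1 of them, Polr1d, the dimmer probe had the opposite sign (-0.17). At the low end stood Pes1 (-0.56 ± 0.20, adjusted p = 0.115), Noc3l (-0.46 ± 0.19, adjusted p = 0.15), and Rrp12, for which both cell types were only partly above background. The dimmer Pes1 probe had the opposite sign here, at 0.35. The d25 arrays of this comparison lie on different slides, and with the slide as a block 2 members, Nop56 (adjusted p = 0.038) and Gnl3 (adjusted p = 0.0467), were higher. Without the TFR array of d12 the count was 0 and without that of d25 it was 1, and it was 6 and 5 without the TFH arrays of d12 and d25.

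Treg and naive CD4 T cells, the PD1lo progenitors, were close in these genes. 0 members were higher in Treg cells and 1 was lower (2.56%, Polr1a, above), while 5.89% of all genes were higher and 3.98% lower. An unadjusted p below 0.05 was reached by 2 members (5.13%) in each direction, beside 13.5% of all genes higher and 14% lower. The estimates ran from -0.58 ± 0.23 for Rrp12 and -0.47 ± 0.13 for Wdr12 to 0.34 ± 0.09 for Gnl3 and 0.34 ± 0.15 for Imp4, and the median was 0.03. The fall of Polr1a passed the test in 9 of the 20 alternatives.

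Whether the follicular change itself differed between Foxp3+ and Foxp3- cells was tested as the difference of TFR minus Treg and TFH minus naive CD4. No member passed (0 higher and 0 lower with limma, beside 4.03% and 4.46% of all genes), although 35 of 39 estimates were above 0 and 32 members were above 0 at both days, compared to 36.4% of all genes. At an unadjusted p below 0.05, 11 members (28.2%) were above 0 and 0 below, beside 12.7% and 12.6% of all genes. The smallest adjusted p was 0.0525, for Nop56 (0.55 ± 0.11). The estimates were highest for Nhp2 (0.89 ± 0.20, adjusted p = 0.0667), Dkc1 (0.79 ± 0.29, adjusted p = 0.176), and Gar1 (0.62 ± 0.15, adjusted p = 0.0796), all of the box H/ACA particles. They were lowest for Pes1 (-0.69 ± 0.29), Utp15 (-0.37 ± 0.17), and Imp4 (-0.28 ± 0.21). For Pes1 and Imp4 the sign depended on the probe. Their dimmer probes were at -1.16 and -1.31 in TFH cells and at -0.60 and -0.89 in TFR cells, the opposite order. As no member passed, a smaller fall in TFR than in TFH cells was not established for any single member. This contrast shares its TFH and TFR arrays with the comparison above.

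**Figure D4:**
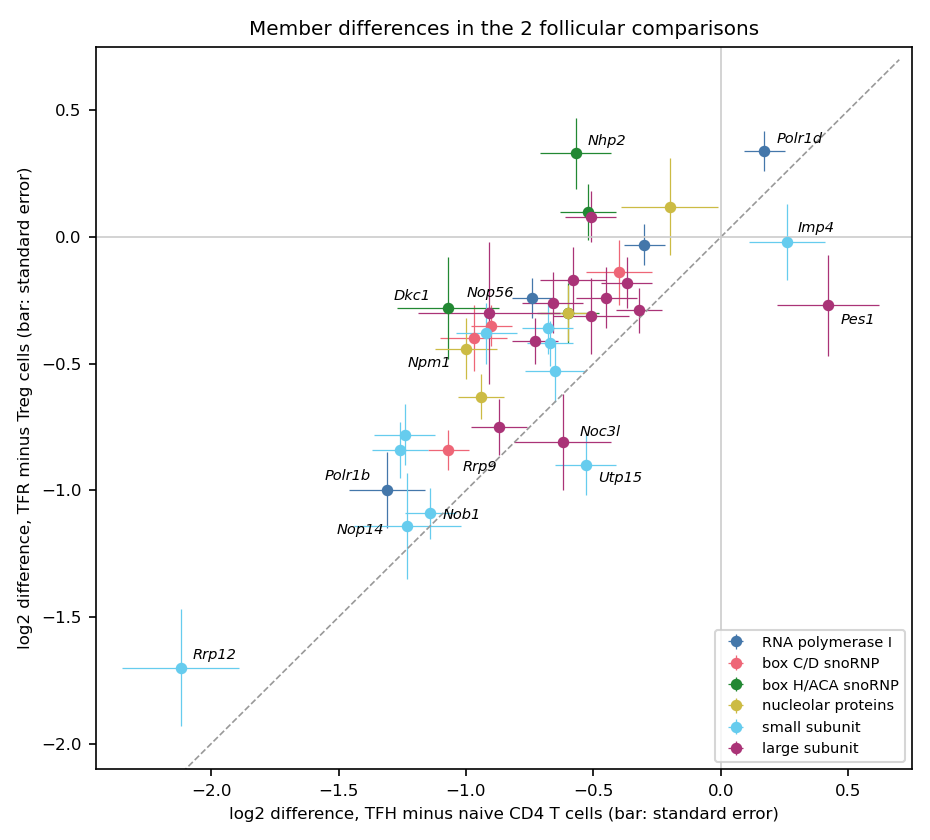
Each point is a member, with its log2 difference of TFH minus naive CD4 T cells (horizontal) and of TFR minus Treg cells (vertical), standard errors as bars and colours by role; the dashed line marks equal differences. Nob1 and Nop14 lie far down near the line, Rrp12 and Polr1b lie far down and above it, and the box H/ACA members Nhp2, Dkc1, and Gar1 lie furthest above it.

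**Figure D5:**
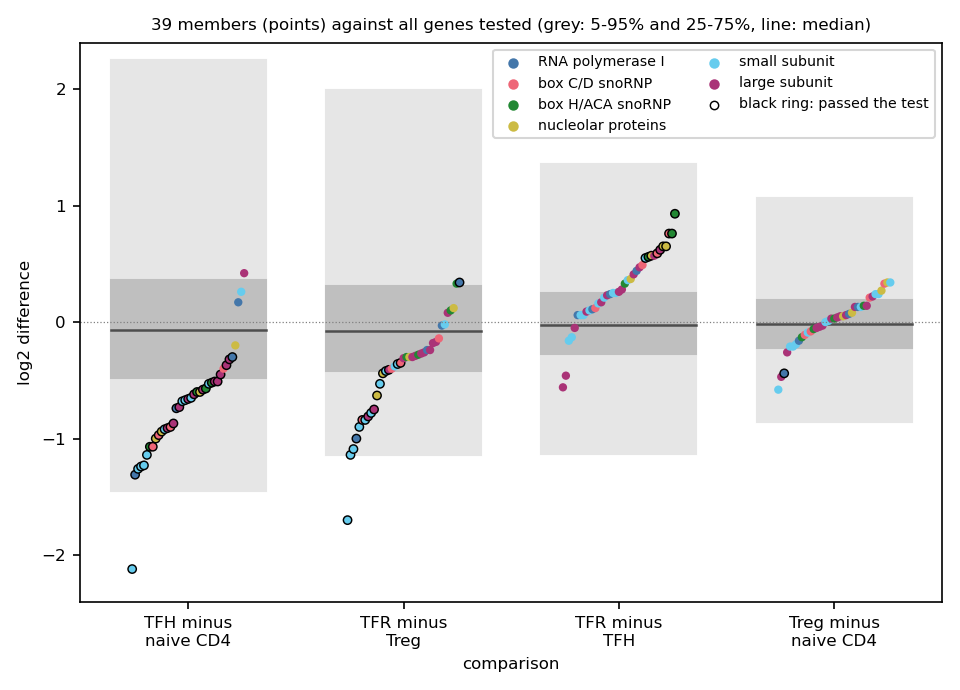
Log2 differences of the 39 members (points, coloured by role, black rings for those that passed the test) in 4 comparisons, over the range of all 15764 genes tested (light grey 5% to 95%, dark grey 25% to 75%, line the median). The members' medians are -0.66, -0.31, 0.26, and 0.03 from left to right, beside -0.07, -0.08, -0.02, and -0.02 for all genes.

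Between d12 and d25, 0 members were higher and 0 lower over the 4 cell types (0.019% and 0.0507% of all genes). At an unadjusted p below 0.05, 4 members (10.3%) were higher and 7 (17.9%) lower at d25, beside 15.9% and 12.9% of all genes. Wdr75 (0.28 ± 0.07) and Ppan (-0.28 ± 0.07) had the smallest adjusted p of 0.0946, and Rrp1b (-0.55 ± 0.19), Pes1 (0.31 ± 0.14), and Ncl (0.29 ± 0.08) were among the largest estimates.

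Several other measures moved with these comparisons. The summed level of 8 B cell markers was 12890 RU on the d25 TFH array and 1721 RU on that of d12, with 4565 to 8801 RU on the other arrays. Of these sums, Cd79b held 7083 and 7547 RU on the Treg arrays and 6845 RU on the d25 TFH array. On the TFR arrays it held 4284 and 5960 RU. Pax5 was at the floor of 20 RU on all 8 arrays. On the d25 TFH array, Ms4a1 had 2738 RU and Cd79a 1822 RU, beside at most 1142 and 722 RU on any other array. Without it, 24 members were lower in TFH than in naive CD4 T cells, 0 were higher, and 5 were higher in TFR than in TFH cells. Of 17 cell cycle genes tested, 12 were higher in TFH than in naive CD4 T cells and 16 in TFR than in Treg cells, where the biogenesis factors fell. Between TFR and TFH cells, 13 were higher in TFR cells, the direction of the 10 members called there. The shares of all genes higher in these comparisons were 20.9%, 18.7%, and 11.6%, in that order. Mki67, the marker of cycling cells, had 475 and 352 RU in naive CD4 T cells, 3621 and 2370 in TFH, 879 and 942 in Treg, and 6708 and 6573 in TFR cells. Myc, the transcription factor that drives ribosome biogenesis, was also lowest in TFH and next lowest in TFR cells and was higher in Treg than in naive CD4 T cells at both days, with 8506 and 9142 RU in naive CD4 T cells, 1663 and 1118 in TFH, 12894 and 14168 in Treg, and 5987 and 5071 in TFR cells. It fell by 2.69 ± 0.20 in TFH cells (adjusted p = 0.000791) and by 1.29 ± 0.20 in TFR cells (adjusted p = 0.00883), and was higher in TFR than in TFH cells by 2.01 ± 0.20 (adjusted p = 0.0044). Of 17 regulators of the pathway tested, Myc included, 6 rose and 5 fell in TFH cells and 3 rose and 5 fell in TFR cells. Among all genes, 20.9% rose and 25.6% fell in TFH cells, and 18.7% rose and 20.9% fell in TFR cells. Mxd3 and Mxd4, which pair with MAX as antagonists of MYC, rose in TFH cells, Mxd3 by at least 6.33-fold (1 of 2 naive CD4 arrays well above background) and Mxd4 by 1.67 ± 0.12 (adjusted p = 0.00133 and 0.000772), and by 2.82 ± 0.25 and 1.33 ± 0.12 in TFR cells (adjusted p = 0.00216 and 0.0025). Mxd1, of the same family, fell by 0.63 ± 0.10 and 0.77 ± 0.10 (adjusted p = 0.00673 and 0.0051). Mtor, the growth kinase, rose in TFH cells (0.94 ± 0.19, adjusted p = 0.0155) and was at 0.32 ± 0.19 in TFR cells (adjusted p = 0.242). Cdkn2a had 1939 and 1079 RU in TFR cells and 167 RU on both Treg arrays. In TFH cells it had 146 and 286 RU, and in naive CD4 T cells 118 and 55 RU. Its differences, 3.12 between TFR and Treg cells and 2.82 between TFR and TFH cells, were the largest of the 17 regulators. Mxd1, Mxd3, Mxd4, Mtor, and Cdkn2a were named after their values were seen. Summed levels of the other marker lists ranged from 20967 to 47877 RU for 6 genes of antibody-secreting cells, highest on the TFH arrays. Of this sum, Xbp1 held 16064 to 42851 RU. From that list 4 genes were tested, of which 2 rose and 0 fell in TFH cells. Prdm1, however, was lowest there, with 572 and 531 RU beside 842 and 954 RU in naive CD4 T cells. The sums ran from 17716 to 30588 RU for 8 myeloid genes, of which Itgam held 13020 to 28504 RU. For Cd8a and Cd8b1 they ran from 2110 to 5118 RU, higher on every PD1lo array than on any follicular one. Of the 5 myeloid genes tested, 1 rose and 2 fell in TFH cells, and 1 rose and 0 fell in TFR cells. The gene that rose was Cd68, which codes for a lysosomal protein. It had 551 and 564 RU in naive CD4 T cells, 5098 and 3768 in TFH, 368 and 394 in Treg, and 2868 and 2333 in TFR cells, and rose in TFH and TFR cells by 2.98 ± 0.16 (adjusted p = 0.000355) and 2.76 ± 0.16 (adjusted p = 0.000884). The part of these measures in the members' differences was not tested.

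The wider pathway was described with 129 further biogenesis genes, of which 127 were tested. In TFH cells 61 (48%) fell and 5 (3.94%) rose, with a median of -0.37, and in TFR cells 48 (37.8%) fell and 3 (2.36%) rose, with a median of -0.33. Among all genes, 25.6% fell and 20.9% rose in TFH cells, and 20.9% fell and 18.7% rose in TFR cells. The largest falls in TFH cells were those of Utp14a (-1.75 ± 0.17), a processome protein, Gltscr2 (-1.36 ± 0.16), a nucleolar protein also named Nop53, and Tcof1 (-1.21 ± 0.18), the treacle protein that activates RNA polymerase I. Mphosph6 (0.71 ± 0.12) and Exosc3 (0.66 ± 0.18) of the RNA exosome and the helicase Ddx24 (0.59 ± 0.11) rose most. In TFR cells, Utp14a (-1.34 ± 0.17), Mak16 (-0.94 ± 0.14), and Urb1 (-0.94 ± 0.09) fell most, while Mphosph6 (0.54 ± 0.12) and Dis3 (0.42 ± 0.11) rose. Nol10 also rose, by at least 2.12-fold (adjusted p = 0.00825), with 102 and 124 RU in TFR cells and 20 and 28 RU, on 0 of 2 arrays well above background, in Treg cells. It entered the tests through its TFR arrays. Between TFR and TFH cells, 7 of these genes were higher in TFR cells (5.51%) and 4 lower (3.15%), with a median of 0.03. Both shares lay below those of all genes (11.6% and 10.5%). Nol10 (at least 2.55-fold, with 1 of 2 TFH arrays well above background), the exosome nuclease Dis3 (0.94 ± 0.11), and Mybbp1a (0.51 ± 0.08) were at the upper end, and Nop9 (-1.22 ± 0.27), Taf1c (-0.65 ± 0.09), and Tsr2 (-0.48 ± 0.10) at the lower. Naf1, an assembly factor of the box H/ACA particles, was the only one that was higher in Treg than in naive CD4 T cells (1.18 ± 0.11, adjusted p = 0.00584). That is 0.787% of these genes, beside 5.89% of all genes.

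Since most of the members fell together, their promoters are described here by short motifs. RefSeq promoters of the build GRCm38.p6, covering 250 bases before to 50 after the start, were found for 36 members, and not for Fbl, Npm1, Rrp12, and Bop1. On either strand, the E-box CACGTG, which MYC is known to bind, was found in 6 of 36 members (16.7%) and 7.15% of 32851 promoters. The ETS core CCGGAAG was found in 11 members (30.6%) and 8.86% of promoters, the GC box GGGCGG in 25 (69.4%) and 35.7%, and TATAAA in 3 (8.33%) and 13.6%. The units differ, since a member counted if any of its promoters held the motif, whereas the other share counts single promoters. Among the 15 matched members that fell in both follicular cell types, 2 had the E-box (Wdr43 and Tsr1), 4 the ETS core, 11 the GC box, and 1 TATAAA. The E-box members include Imp4 and Pes1, whose brightest probes did not fall. Such matches are letters in a window and no measure of binding. The 8 stretches that hold an E-box or an ETS core before the start are shown 5' to 3' along the gene, since they hold the motifs that MYC and ETS factors are known to bind, with these motifs in capitals.
Polr1c (chr17:46248046-46248137, minus strand): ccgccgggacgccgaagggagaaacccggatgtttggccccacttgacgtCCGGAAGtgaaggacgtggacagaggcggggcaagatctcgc
Gar1 (chr3:129831397-129831489, minus strand): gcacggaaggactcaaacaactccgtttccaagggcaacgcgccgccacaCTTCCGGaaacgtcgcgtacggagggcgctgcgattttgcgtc
Nhp2 (chr11:51619700-51619772, plus strand): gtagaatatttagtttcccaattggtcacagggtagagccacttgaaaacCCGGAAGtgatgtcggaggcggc
Nolc1 (chr19:46075783-46075846, plus strand): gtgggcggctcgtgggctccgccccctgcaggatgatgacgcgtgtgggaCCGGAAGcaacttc
Heatr1 (chr13:12395309-12395374, plus strand): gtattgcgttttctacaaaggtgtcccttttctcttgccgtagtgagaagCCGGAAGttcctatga
Imp4 (chr1:34439658-34439763, plus strand): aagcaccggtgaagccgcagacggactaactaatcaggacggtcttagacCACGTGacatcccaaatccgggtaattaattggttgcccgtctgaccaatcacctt
Nop2 (chr6:125131773-125131882, plus strand): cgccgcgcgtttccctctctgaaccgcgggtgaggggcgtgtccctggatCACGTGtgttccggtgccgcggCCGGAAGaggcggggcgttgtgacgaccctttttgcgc
Nip7 (chr8:107056724-107056830, plus strand): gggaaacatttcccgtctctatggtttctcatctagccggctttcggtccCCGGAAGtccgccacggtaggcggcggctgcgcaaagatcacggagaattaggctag

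In the stretch of Nop2, a methyltransferase of the large subunit RNA, the E-box at base -60 and the ETS core at base -38 stand close together. Nop2 fell in TFH cells by 0.45 ± 0.12 (adjusted p = 0.0306) and was at -0.24 ± 0.12 in TFR cells (adjusted p = 0.165). Of the other genes shown, Polr1c, Gar1, Nhp2, Nolc1, and Nip7 fell in TFH cells and did not pass the test in TFR cells, Heatr1 fell in both follicular cell types, and Imp4 in neither by its brightest probe.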

How the data were processed

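Total RNA of sorted cells (25 ng) was amplified, labeled with Alexa Fluor 555 and hybridized by the authors to 1 one-colour Agilent array per sample, 8 in all. Spots were extracted with Agilent Feature Extraction 10.7.3.1, per the submitters' processing notes. The authors deposited the spot intensities (gProcessedSignal, background-subtracted, on a linear scale) and a table of normalized intensities on a linear scale. They took a probe's geometric mean over its 4 spots, normalized by quantiles, scaled the 75th percentile to 1500, and set a floor of 20. Their steps were repeated here from the deposited spots, excluding flagged spots, spots beyond 1.42 times the interquartile range, and spots with a pixel coefficient of variation above 0.5. As a check, the resulting log2 values were set against the deposited table, and over the probes Pearson's r was 0.9994. The brightest 1% of probes lay a median of 0.51 (log2) above that table on each array, and members at most 0.41 (Npm1), so that levels in RU of bright genes are higher here. Counts of members called with the deposited table were the same.

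The probe of highest mean log2 level stood for its gene. A probe counted as well above background if the scanner's flag was set on over 50% of the spots kept, and a gene was tested where this held on both arrays of a cell type. The limma package 3.58.1 (R 4.3.3, lmFit and eBayes) was used to fit cell type and day over all genes tested, with 3 residual and 1.89 prior degrees of freedom. Tukey's test after one-way ANOVA, named in the methods, was not run, since a cell type has 1 array at each day. The script was tested on simulated data. The spots of a probe had a median SD of 0.0433 (log2) over the members and arrays, which is technical, and the number of arrays limits the precision. Probes are placed as in the files (build NCBI37) and carry no exon or UTR annotation here.

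Levels on all arrays are given for Ncl, Npm1, Fbl, Dkc1, and Polr1a, for the highest and the lowest member of each role group in TFH versus naive CD4 T cells, for the 3 highest and 3 lowest members in the other comparisons, and for members whose probes disagree. The further biogenesis genes, regulators, and markers come from written lists. Of the further biogenesis genes, up to 3 called genes with the largest rise and fall in a comparison are named. The regulators and markers were not picked by that rule. The members and all lists were chosen with earlier results of these data known. The 20 alternatives were another scaling, background correction, spot and probe choice, floor, filter, day or slide term, prior, and threshold, and the omission of each array.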

Additional observations from a re-analysis of the deposited data

How the results depend on the processing

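Under the 20 alternatives, each of the 34, 18, 10, and 1 members called in TFH versus naive CD4 T, TFR versus Treg, TFR versus TFH, and Treg versus naive CD4 T cells kept its direction. Estimates that did not pass the test changed sign, still without passing, 70 times over 42 member comparisons. Calls were less stable: 7 of the 34, 1 of the 18, and 0 of the 10 passed the test under every alternative, and the causes were not tested. With a log2 difference of at least 1 as a further threshold, which by its construction removes smaller differences, 9 members fell in TFH cells, 3 fell and 0 rose in TFR cells, 0 were higher in TFR than in TFH cells, and 0 were lower in Treg than in naive CD4 T cells. With the slide as a block in place of the day, 27 members fell in TFH and 15 in TFR cells, 2 members were higher in TFR than in TFH cells, 0 rose in TFR versus Treg cells, and 0 were lower in Treg cells. With no day term these counts were 24, 12, 5, 0, and 0. With every gene name tested, 23 members fell in TFH and 14 in TFR cells, and 2 were higher in TFR than in TFH cells. With the mean of all probes, Imp4 turned from 0.26 to a fall (-0.52, adjusted p = 0.0259) in TFH cells, 1 member (Polr1d) rose there, 0 rose in TFR versus Treg cells, and 0 were lower in Treg cells. With scaling alone 0 rose in TFR versus Treg cells, and with all spots kept 0 were lower in Treg cells. The difference of the follicular changes was called for 2 members with normexp background correction (Nop56 and Nhp2), 1 with every gene name tested and 1 with only genes well above background on all arrays (Nop56 in both), and 5 with an intensity trend and robust prior (Polr1a, Nop56, Gar1, Nhp2, and Nop16).

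Leaving out 1 array at a time, which leaves a lone array assumed to vary like the other cell types, gave 18 to 28 fallen and 0 to 1 risen members in TFH cells, 5 to 16 fallen and 0 to 1 risen in TFR versus Treg cells, 0 to 8 higher and 0 to 1 lower in TFR than in TFH cells, 0 to 2 lower in Treg than in naive CD4 T cells, and 0 to 1 for the difference of the follicular changes. The risen member was Pes1 in TFH cells. Over all genes, normexp moved the day calls from 3 higher and 8 lower to 524 and 331, with 0 members called under either. Levels near background bear on Rrp12 and Lyar among the members.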
